A study of Sus scrofa with 9 samples.

Results

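The measurements were the mRNA levels of 10 genes of the nitric oxide, cGMP and protein kinase G pathway of vessel relaxation in the aorta of Tibetan minipigs. The genes were taken by name from a deposited table of 21357 genes: GUCY1A1, GUCY1B1, PRKG1, PDE5A, PDE3A, PLN, KCNMA1, KCNMB1, NPR1 and NPR3. Each name was found, and all 10 genes passed the filter on low values in every comparison. They were chosen by their known role and not by a rule on their values, although earlier results of these data were known.

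Nitric oxide leaves the endothelium and binds soluble guanylyl cyclase in the smooth muscle cell, which then makes cGMP. Natriuretic peptides raise cGMP through a receptor that is itself a cyclase. cGMP switches on protein kinase G, which lowers calcium, opens potassium channels and relaxes the muscle, and phosphodiesterases end the signal by breaking cGMP down.

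RNA had been taken from the lowest stretch of the abdominal aorta of male pigs, with 3 libraries in each of 3 groups. The NC group received a normal diet for 24 weeks, H8 a high-fat diet for 8 weeks, and H24, the atherosclerosis group, a high-fat diet for 24 weeks. The methods of the study describe NC and H24, bought at 3 to 4 months of age, with shortening oil, cholesterol and egg yolk powder added to the basal feed of H24. In these groups 3 of 5 pigs were sequenced. H8 is known from the labels alone, which give neither its age nor the contents of its diet, and there was no control at 8 weeks. Diet and time on study cannot be told apart in H8/NC, nor can diet duration and age in H24/H8. For H8 the labels do not say that each library came from its own pig, so there the p-values may measure only the spread between these samples.

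The libraries held between 44094263 and 75787978 counts. The vessel wall was well represented: all 10 smooth muscle markers were detected in every library, with TAGLN the highest, although the extraction protocol speaks of an adipose type. One library stood apart. Summed smooth muscle markers were 1808 FPKM in H24 replicate 3, against 8554 and 12382 FPKM in the other H24 libraries and 12260 to 14618 FPKM in NC. Summed macrophage and leukocyte markers were 1462 FPKM in that library, 161 and 232 FPKM in the other H24 libraries, 23.1 to 123 FPKM in H8 and 24.6 to 30.3 FPKM in NC. FPKM is the number of fragments per kilobase of transcript, scaled to the depth of the library, so it is a level per length. The fold changes of the members in H24/NC are given with and without replicate 3, and genes of other lists called in H24 are given with whether the call held without it. In bulk tissue, fewer cells of a type and less RNA per cell cannot be told apart.

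The 10 genes covered a wide range of levels. In NC the order by mean FPKM was KCNMB1 (196 ± 21.4, SD, n = 3), PLN (117 ± 18.3), NPR1 (86.1 ± 1.21), KCNMA1 (18.3 ± 3.49), PDE5A (9.04 ± 8.09), GUCY1B1 (8.83 ± 2.48), PRKG1 (8.5 ± 1.11), PDE3A (6.29 ± 0.313), GUCY1A1 (4.19 ± 1.86) and NPR3 (0.432 ± 0.204). KCNMB1 was 179th of all 21357 genes in NC, PLN 311th and NPR1 427th, whereas NPR3 was 12251st. Neighbours in this order did not overlap at the top, from KCNMB1 down to KCNMA1. The libraries of KCNMA1 and PDE5A, of PDE5A and GUCY1B1, of GUCY1B1 and PRKG1, and of PDE3A and GUCY1A1 overlapped, so their order is not beyond the spread. In H8 and in H24 the 3 highest were again KCNMB1, PLN and NPR1, and NPR3 stayed below every other member in every library. In H24 the values of PLN, KCNMB1 and NPR1 overlapped one another.

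A gene was called by the thresholds of the study, a log2 fold change above 1 or below -1 and a p-value under 0.05 before adjustment, here from edgeR's quasi-likelihood test over all expressed genes. In H24/NC, KCNMA1 was down-regulated and NPR3 up-regulated. In H8/NC, PDE3A was up-regulated, and in H24/H8 no member was called. These are 2 of 10 members in H24/NC, where 11.5% of 14828 genes were called, 1.52% lower and 9.95% higher. In H8/NC 1 of 10 members was called, where 7.39% of 14336 genes were, with 5.11% called higher. In H24/H8 none of 10 was, where 10.3% of 14788 genes were. With so few members these shares are near those of all genes. Without H24 replicate 3, 1 member was called in H24/NC against 7.77% of genes and 0 in H24/H8 against 6.25%. At an unadjusted p under 0.05 and any fold, 2 members passed in H24/NC (13.9% of all genes), 3 in H8/NC (14.8%) and 0 in H24/H8 (13.7%). Without H24 replicate 3, 4 members passed in H24/NC (KCNMA1, KCNMB1, PDE3A and NPR3), beside 1612 of 14578 genes. In H24/H8 1 did (KCNMA1), beside 1554 of 14589 genes. With all libraries no member had an edgeR p-value under 0.05 after Benjamini-Hochberg adjustment over all genes, where 0%, 0.0279% and 0.0135% of all genes did. DESeq2 adjusted values passed 0.05 in 993 genes in H24/NC, with NPR3 the only member among them (adjusted p = 0.0377). By DESeq2 and the unadjusted threshold, GUCY1B1 was called in H24/H8.

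H24/NC and H8/NC share the NC libraries, so their values are set side by side and are not independent of each other. The median log2 fold change of the members was -0.42 in H24/NC, -0.01 in H8/NC and -0.56 in H24/H8, beside medians of 0.01, 0.01 and 0.04 over all genes tested. Fitted values were below 0 for 8, 5 and 8 of the 10 members, against 49.4%, 48.5% and 47% of all genes. Without H24 replicate 3 the median of the members was -0.05 in H24/NC and -0.21 in H24/H8, with 5 and 7 members below 0, against 51.9% and 50.2% of all genes.

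**Figure D1:**
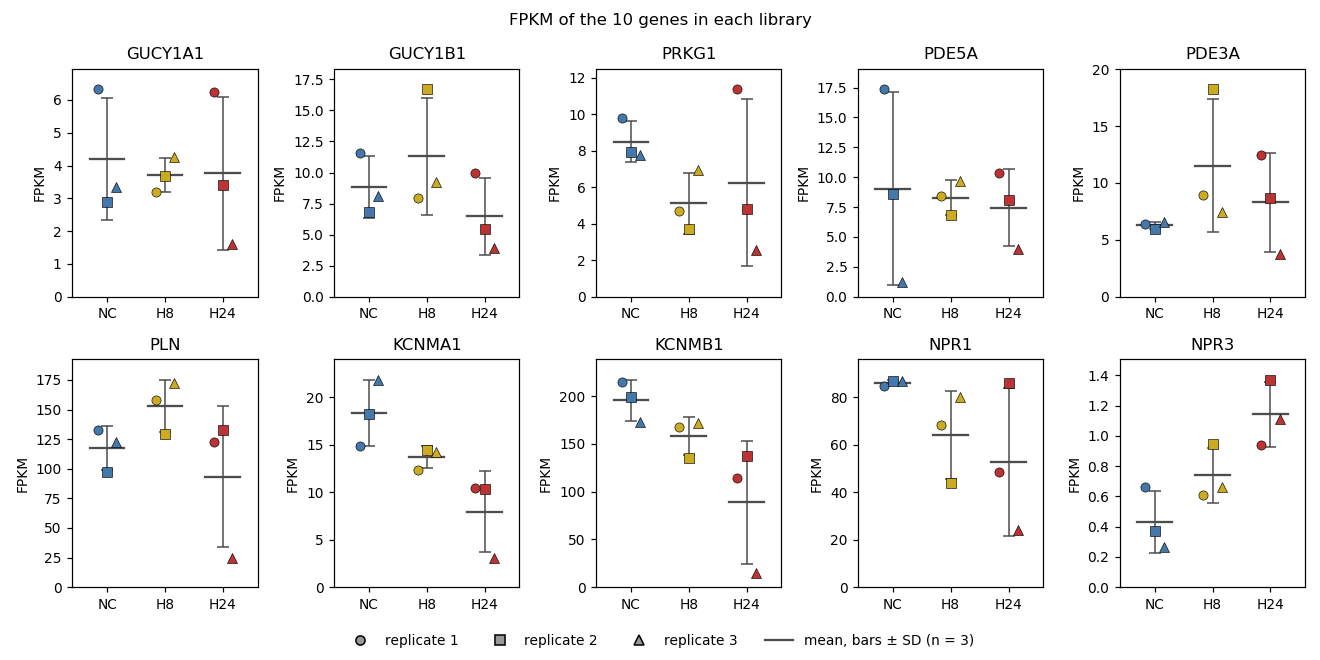
FPKM of the 10 genes in each library, with 1 panel a gene, the group on the x axis, a marker shape for each replicate number, and bars for the mean and SD of 3 libraries. KCNMA1 falls from 14.8 to 21.8 FPKM in NC to at most 10.5 in H24, and NPR3 lies at 0.942 to 1.37 in H24. The third H24 library is the lowest of all 9 for every gene but PDE5A and NPR3.

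The large-conductance calcium-activated potassium channel, or BK channel, lets potassium out of the muscle cell and is a target of protein kinase G. KCNMA1 encodes its pore and KCNMB1 the beta-1 subunit, which raises the calcium sensitivity of the pore and is typical of smooth muscle. Both were lower in H24 than in NC, and KCNMA1 passed the test.

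KCNMA1 (ENSSSCG00000010325, Sscrofa11.1 chr14:79353006-80106018, minus strand) was at 14.8, 18.2 and 21.8 FPKM in NC, at 12.3, 14.5 and 14.3 in H8 and at 10.5, 10.3 and 3.03 in H24. On this scale all 3 groups were apart, with NC highest and H24 lowest. In H24/NC it fell by 1.23 on the log2 scale (SE 0.47, edgeR adjusted p = 0.319), a 2.35-fold lower level. Its level was below NC in 3 of 3 H24 libraries. Without H24 replicate 3 the difference was -0.84 (SE 0.24, edgeR adjusted p = 0.181), where the unadjusted p stayed under 0.05 and the fold of the call was lost. The call was also lost without NC replicate 2 or NC replicate 3. In H24/H8 the log2 fold change was -0.96 (SE 0.47, edgeR adjusted p = 0.4), and -0.57 (SE 0.22, edgeR adjusted p = 0.434) without H24 replicate 3. In H8/NC it was -0.28 (SE 0.19, edgeR adjusted p = 0.539). There the gap between groups depended on the scale: with TMM scaling, H8 replicate 2 (log2 difference from the NC mean -0.09) lay above NC replicate 1 (-0.30).

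KCNMB1 (ENSSSCG00000017005, chr16:53618603-53631195, plus strand) was the most abundant member in NC, at 215, 199.7 and 173 FPKM. It was at 168, 135 and 172 FPKM in H8 and at 114, 137 and 15.3 FPKM in H24. Each H24 library was below each NC library, and replicate 3 held 7.8% of the NC mean where the other H24 libraries held 58.2% and 69.8%. The log2 fold change in H24/NC was -1.17 (SE 0.69, edgeR adjusted p = 0.511), so the gene was not called, the unadjusted p being over 0.05. Without H24 replicate 3 it was -0.66 (SE 0.22, edgeR adjusted p = 0.282), a smaller difference with a smaller error and an unadjusted p under 0.05. In H8/NC it was -0.18 (SE 0.15, edgeR adjusted p = 0.632).

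The proportion of the subunits overlapped between all groups. The ratio of KCNMB1 to KCNMA1 in FPKM was 14.5, 11 and 7.92 in NC, 13.7, 9.34 and 12.1 in H8 and 10.9, 13.2 and 5.05 in H24. The groups overlapped, and the log2 difference was -0.26 in H24/NC (exact permutation p = 0.6) and 0.10 in H8/NC (exact permutation p = 0.8). With 3 libraries against 3 this test cannot go below 0.1. Over the 9 libraries the log2 levels of the subunits had a Pearson r of 0.94, and over the 8 libraries without H24 replicate 3 an r of 0.64.

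The lower BK channel levels in H24 came beside lower smooth muscle markers. All 10 of those markers had a log2 fold change below 0 in H24/NC (median -0.79, 0 called), and 8 of 10 without H24 replicate 3 (median -0.34). In H24 replicate 1 the difference from the NC mean was -0.85 for KCNMA1, -0.84 for KCNMB1 and -0.53 for the median smooth muscle marker. In replicate 2 these were -0.78, -0.48 and -0.12, and in replicate 3 they were -2.58, -3.68 and -3.00. With H24 replicate 3 left out, the lowest markers were about as low in H24/NC as KCNMA1 (-0.84) and KCNMB1 (-0.66). These were MYH11 at -0.78, SMTN at -0.59 and ACTG2 at -0.58, chosen here after their values were seen. The other markers ran from -0.43 (LMOD1) to 0.24 (DES), with ACTA2 at -0.22, TAGLN at -0.09 and MYOCD at 0.22. When libraries were scaled to equal smooth muscle markers, KCNMA1 was at -0.21 (edgeR adjusted p = 0.866) and KCNMB1 at -0.49 (edgeR adjusted p = 0.675) in H24/NC, and neither was called. That scaling shifts the median of all genes to 1.71 in the same comparison. With the same scaling and without H24 replicate 3, an alternative chosen after seeing the data, they were at -0.53 (SE 0.29) and -0.36 (SE 0.23), not called either. The part of muscle content in the result was not tested.

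**Figure D2:**
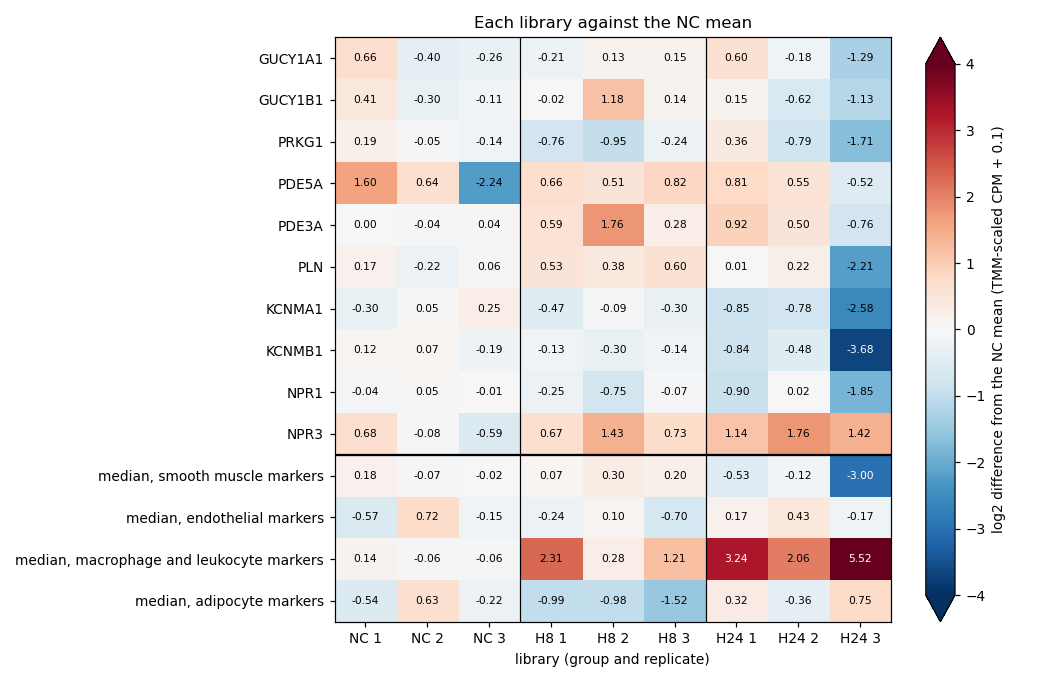
Log2 difference of each library (x axis, group and replicate) from the NC mean, on TMM-scaled CPM with 0.1 added, for the 10 genes and for the median of 4 lists of cell markers (y axis), with colour from blue (lower) to red (higher). H24 replicate 3 is blue in 9 of the 10 genes and at -3.00 in the smooth muscle median, and NPR3 is red in every H8 and H24 library.

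Natriuretic peptides act through NPR1, the receptor cyclase that makes cGMP, and are removed by NPR3, the clearance receptor. Their group means differed in direction: in H8 and in H24 the mean FPKM of NPR3 was above NC and that of NPR1 below. Only NPR3 in H24/NC was called.

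NPR3 (ENSSSCG00000036201, chr16:18842039-18929808, plus strand) was at 0.661, 0.369 and 0.267 FPKM in NC, at 0.612, 0.946 and 0.661 in H8 and at 0.942, 1.37 and 1.11 in H24. Every H24 library was above every NC library, and H8 overlapped both. The gene was the rarest member, with 140 to 548 counts a library, well above the floor of 3 counts. In H24/NC it rose by 1.39 on the log2 scale (SE 0.43, edgeR adjusted p = 0.234), or 2.61-fold. The rise was as large without H24 replicate 3, at 1.41 (SE 0.46, edgeR adjusted p = 0.267), and NPR3 was called whichever of the 6 libraries was left out. In H8/NC it was 0.93 (SE 0.41, edgeR adjusted p = 0.353) and in H24/H8 0.43 (SE 0.36, edgeR adjusted p = 0.6). Neither passed. In H24, 9 of 10 macrophage and leukocyte markers, 2 of 6 adipocyte markers and 2 of 6 fibroblast markers were called higher than in NC. The adipocyte markers were split. LEP (2.53) and LPL (3.40) were called higher, while 3 of the 6 were below 0, PLIN1 at -2.22, ADIPOQ at -1.82 and FABP4 at -0.38. Of the 6 fibroblast markers 1 was below 0. The summed adipocyte markers were 94.5 to 164 FPKM in NC and 64.3 to 218 FPKM in H24, and the summed fibroblast markers 889 to 1130 and 1241 to 1469 FPKM. The part of these cells in the NPR3 level was not tested.

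NPR1 (ENSSSCG00000006572, chr4:95957223-95973430, minus strand) was the steadiest gene of the 10 in NC, at 84.7, 86.7 and 86.9 FPKM. It was at 68.2, 43.7 and 79.9 FPKM in H8 and at 48.3, 85.7 and 24 FPKM in H24. All 3 H8 libraries lay below NC, whereas H24 replicate 2 lay within it. The log2 fold change was -0.72 in H24/NC (SE 0.45, edgeR adjusted p = 0.529) and -0.31 in H8/NC (SE 0.20, edgeR adjusted p = 0.51). Without H24 replicate 3 the value in H24/NC was -0.37 (SE 0.29, edgeR adjusted p = 0.755), and without H24 replicate 2 it was -1.31 and passed the call.

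The balance of the receptors was apart in both diet groups. The ratio of NPR1 to NPR3 in FPKM was 128, 235 and 326 in NC, 112, 46.2 and 121 in H8 and 51.2, 62.5 and 21.6 in H24. Each library of H8 and H24 was below each NC library. The log2 ratio was 7.74 ± 0.68 (SD, n = 3) in NC, 6.42 ± 0.77 in H8 and 5.36 ± 0.82 in H24. The log2 difference was -2.38 in H24/NC and -1.33 in H8/NC, each with the smallest exact permutation p the design allows, 0.1, and an adjusted p of 0.5 over 15 comparisons of ratios. H8 and H24 overlapped, since H8 replicate 2 lay below H24 replicates 1 and 2.

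Phosphodiesterases end the cyclic nucleotide signal. PDE5A breaks down cGMP, and PDE3A breaks down cAMP and is itself inhibited by cGMP. PDE3A was the single member called in H8/NC, and PDE5A was the most variable member within NC.

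PDE3A (ENSSSCG00000028662, chr5:52413637-52738207, minus strand) was tightly grouped in NC, at 6.37, 5.94 and 6.55 FPKM. It was at 8.91, 18.2 and 7.42 FPKM in H8 and at 12.4, 8.71 and 3.72 FPKM in H24. All 3 H8 libraries and H24 replicates 1 and 2 were above NC, and H24 replicate 3 was below it. In H8/NC it rose by 1.05 on the log2 scale (SE 0.37, edgeR adjusted p = 0.274), or 2.07-fold, just past the fold threshold. Without H8 replicate 2, the highest library, the value was 0.45 and the call was lost. It was also lost when any 1 of the 3 NC libraries was left out, with values of 1.03 to 1.07 and an unadjusted p over 0.05. In H24/NC the log2 fold change was 0.37 (SE 0.41, edgeR adjusted p = 0.737), and 0.72 (SE 0.23, edgeR adjusted p = 0.247) without H24 replicate 3, where the groups no longer overlapped. In H8 the median smooth muscle marker was 0.18 above NC on the log2 scale with 1 of 10 called higher, 5 of 10 leukocyte markers and 2 of 6 fibroblast markers were called higher, and 3 of 5 tested adipocyte markers were called lower. The smooth muscle marker called was MYOCD, at 1.59 (SE 0.47, edgeR adjusted p = 0.233), and 3 of the 10 had an unadjusted p under 0.05. MYOCD was at 115 FPKM in H8 replicate 2, the library highest in PDE3A, and at 67 and 34.9 FPKM in the other H8 libraries. Their part in the PDE3A level was not tested.

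PDE5A (ENSSSCG00000009106, chr8:104270893-104420953, plus strand) was at 17.3, 8.56 and 1.2 FPKM in NC, a range of 14.5-fold within the control group. The lowest of these rests on 644 counts, against 9392 and 5383 in the other NC libraries. Values were 8.4, 6.82 and 9.68 FPKM in H8 and 10.4, 8.09 and 3.95 FPKM in H24. Both diet groups lay within the range of NC. The log2 fold change was -0.30 in H24/NC (SE 0.82, edgeR adjusted p = 0.906) and 0.01 in H8/NC (SE 0.74, edgeR adjusted p = 0.997), with the largest errors of any member. In H24/NC it was 0.01 (SE 0.83, edgeR adjusted p = 0.999) without H24 replicate 3. In NC replicate 3 PDE5A was at -2.24 from the NC mean on the log2 scale, while the other members ran from -0.59, the value of NPR3, to 0.25.

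Soluble guanylyl cyclase, the receptor of nitric oxide, is a dimer of an alpha and a beta subunit. GUCY1A1 encodes the alpha-1 and GUCY1B1 the beta-1 subunit, and the genes are neighbours. Neither was called by edgeR in any comparison of all libraries.

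GUCY1A1 (ENSSSCG00000008866, chr8:44448780-44520669, plus strand) was at 6.32, 2.9 and 3.35 FPKM in NC, at 3.2, 3.67 and 4.25 in H8 and at 6.25, 3.41 and 1.62 in H24. GUCY1B1 (ENSSSCG00000008870, chr8:44544037-44604807, plus strand) was at 11.6, 6.81 and 8.09 FPKM in NC, at 7.98, 16.7 and 9.26 in H8 and at 9.97, 5.47 and 3.94 in H24. For both subunits replicate 1 was the highest and replicate 3 the lowest of the H24 libraries, and the groups overlapped. The log2 fold change in H24/NC was -0.18 for GUCY1A1 (SE 0.51, edgeR adjusted p = 0.907) and -0.48 for GUCY1B1 (SE 0.37, edgeR adjusted p = 0.612). Leaving out H24 replicate 3, these were 0.18 (SE 0.39, edgeR adjusted p = 0.933) and -0.22 (SE 0.32, edgeR adjusted p = 0.888), so the direction of GUCY1A1 turned. In H24/H8 GUCY1B1 was at -1.03 (SE 0.46, edgeR adjusted p = 0.383), past the fold but with an unadjusted p over 0.05. It was at -0.77 (SE 0.44) without H24 replicate 3, and ran from -1.45 to -0.54 with each library left out in turn. GUCY1B1 was called lower in H24/H8 in 3 of the alternatives, DESeq2 among them. In H8/NC the values were -0.03 (SE 0.30) and 0.53 (SE 0.35).

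The beta subunit was the more abundant in every library. The ratio of GUCY1A1 to GUCY1B1 in FPKM was 0.414 to 0.545 in NC, 0.22 to 0.459 in H8 and 0.41 to 0.626 in H24. The lowest ratio was that of H8 replicate 2, where GUCY1B1 was at its highest. None of the 3 comparisons of this ratio reached an exact permutation p below 0.2.

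NOS3, the endothelial enzyme that makes nitric oxide, is no member but lies upstream of the cyclase. It was at 8.63, 24.1 and 11.4 FPKM in NC, at 15.5, 5.87 and 3.61 in H8 and at 19.1, 21.1 and 4.49 in H24. The groups overlapped, with a log2 fold change of -0.02 in H24/NC (SE 0.63, edgeR adjusted p = 0.992) and -0.71 in H8/NC (SE 0.59, edgeR adjusted p = 0.616). With H24 replicate 3 left out the value in H24/NC was 0.42 (SE 0.43, edgeR adjusted p = 0.834). Summed endothelial markers ran from 52.5 to 167 FPKM over the 9 libraries, with the groups overlapping.

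PRKG1 encodes protein kinase G type I, the kinase through which cGMP relaxes smooth muscle. PRKG1 (ENSSSCG00000010429, chr14:97558535-98793356, minus strand) was at 9.78, 7.92 and 7.79 FPKM in NC, at 4.69, 3.72 and 6.97 in H8 and at 11.4, 4.78 and 2.59 in H24. All 3 H8 libraries were below NC, whereas the H24 libraries lay on both sides of it. In H8/NC the log2 fold change was -0.60 (SE 0.22, edgeR adjusted p = 0.275), with an unadjusted p under 0.05 but short of the fold. In H24/NC it was -0.48 (SE 0.49, edgeR adjusted p = 0.707), and -0.11 (SE 0.34, edgeR adjusted p = 0.954) without H24 replicate 3. Without H24 replicate 1, the one library above NC, it was -1.20 (edgeR adjusted p = 0.196) and passed the call.

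The ratio of PDE5A, which breaks cGMP down, to PRKG1, which reads it, was 1.77, 1.08 and 0.154 in NC. It was 1.79, 1.83 and 1.39 in H8 and 0.91, 1.69 and 1.53 in H24. The spread lay within NC, where the low PDE5A value of replicate 3 set the lowest ratio. The mean ratio on the log scale was 2-fold that of NC in H24 (exact permutation p = 0.7) and 2.49-fold in H8 (exact permutation p = 0.2), and the groups overlapped.

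PLN encodes phospholamban, which holds back the calcium pump of the sarcoplasmic reticulum until a kinase such as protein kinase G phosphorylates it. PLN (ENSSSCG00000034163, chr1:43449758-43449916, minus strand) was at 132, 97.1 and 123 FPKM in NC, at 158, 129 and 172 in H8 and at 122, 133 and 24.9 in H24. H24 replicates 1 and 2 lay close to NC and replicate 3 far below every other library. The log2 fold change was 0.52 in H8/NC (SE 0.17, edgeR adjusted p = 0.262), with an unadjusted p under 0.05 but short of the fold. It was -0.35 in H24/NC (SE 0.57, edgeR adjusted p = 0.833) and 0.10 (SE 0.25, edgeR adjusted p = 0.941) without H24 replicate 3. The gene model is 159 bases long, against a span of 9572 bases for PLN in RefSeq on the same assembly, and 258 to 2206 counts fell in it. Its place among the levels per length therefore rests on a short model, while its fold changes do not depend on the length.

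ATP2A2, the main calcium pump that phospholamban acts on, was at 66.5, 31.8 and 39.6 FPKM in NC, at 36.7, 38.1 and 37 in H8 and at 35.2, 35.7 and 15.6 in H24. The ratio of PLN to ATP2A2 was 1.99, 3.05 and 3.1 in NC, 4.3, 3.39 and 4.66 in H8 and 3.48, 3.72 and 1.59 in H24. Each H8 library was above each NC library, a log2 difference of 0.62 or 1.53-fold (exact permutation p = 0.1, adjusted p = 0.5). In H24 the ratio lay on both sides of NC, with a log2 difference of 0.04 (exact permutation p = 1).

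**Figure D3:**
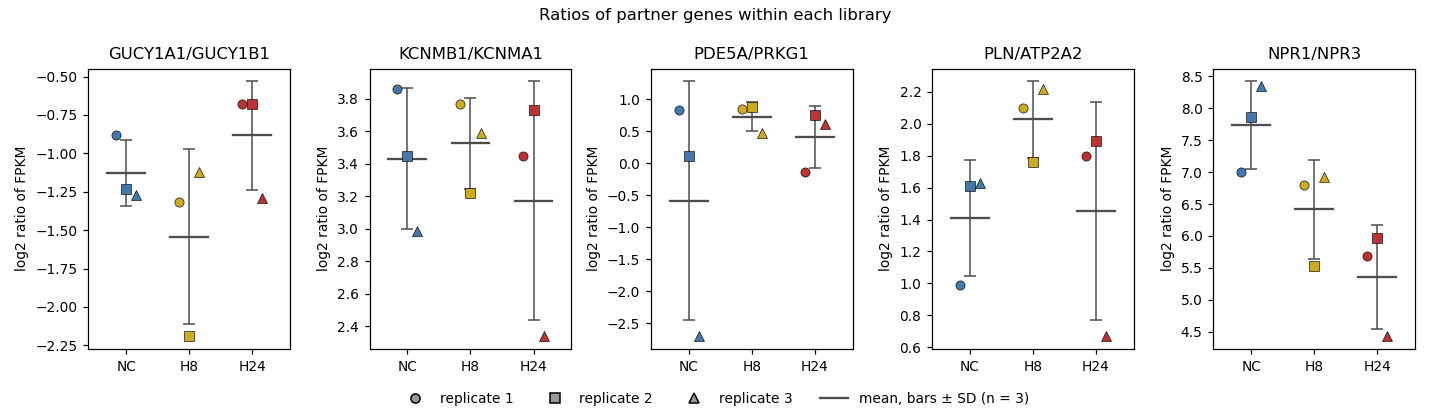
Log2 ratio of FPKM of 5 pairs of partner genes within each library (y axis) by group (x axis), with bars for the mean and SD of 3 libraries. The ratio of NPR1 to NPR3 is 7.74 in NC, 6.42 in H8 and 5.36 in H24 on average with no overlap of either diet group with NC, and the other 4 ratios overlap NC in H24.

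Groups that did not overlap were counted for the 10 members and for all genes. In H24/NC 3 members were apart in FPKM, KCNMA1, KCNMB1 and NPR3, against 20.6% of all genes. In H8/NC 5 were apart, PRKG1, PDE3A, KCNMA1, KCNMB1 and NPR1, against 22.8%. In H24/H8 KCNMA1 alone was apart, against 21.8%. On TMM-scaled counts the numbers were 3, 4 and 3, against 21.1%, 21.4% and 21.4%. On that scale PLN was apart in H8/NC in place of KCNMA1 and KCNMB1, and PLN and KCNMB1 joined KCNMA1 in H24/H8. FPKM and counts of 1 gene are proportional within a library, so the scaling between libraries is what differs here.

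**Figure D4:**
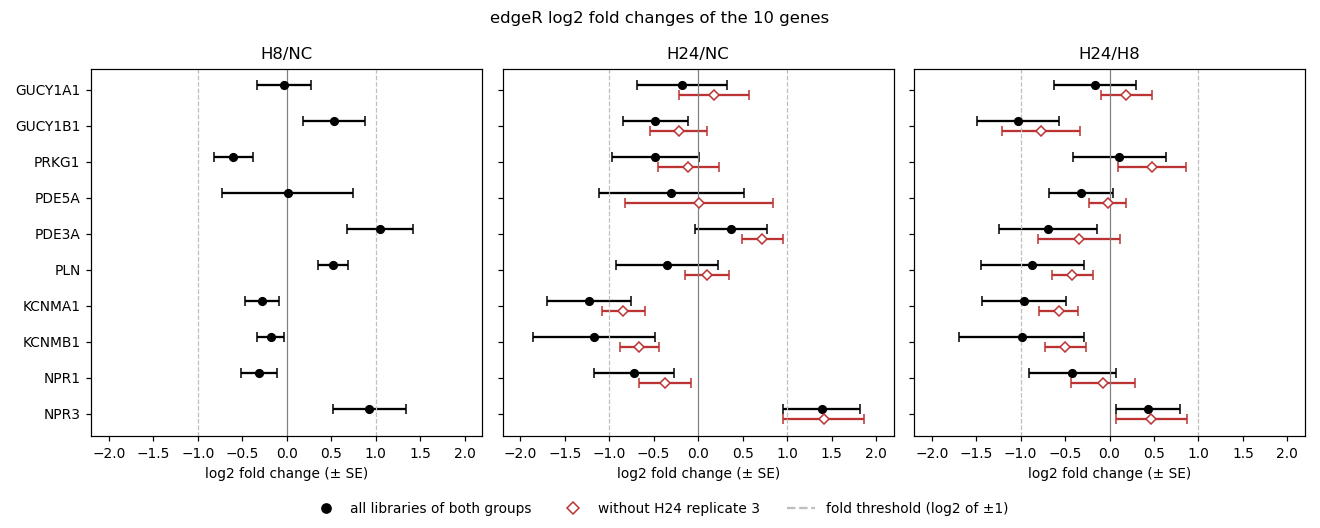
Log2 fold changes from edgeR, with an SE derived from its test (x axis), of the 10 genes (y axis) in H8/NC, H24/NC and H24/H8, for all libraries (filled) and without H24 replicate 3 (open), with dashed lines at the fold threshold. In H24/NC, KCNMA1 moves from -1.23 to -0.84 without that library and KCNMB1 from -1.17 to -0.66, while NPR3 stays at 1.39 and 1.41.

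H24 replicate 3 weighed on the members unequally. Its log2 difference from the NC mean was -3.68 for KCNMB1, -2.58 for KCNMA1, -2.21 for PLN, -1.85 for NPR1, -1.71 for PRKG1, -1.29 for GUCY1A1, -1.13 for GUCY1B1, -0.76 for PDE3A and -0.52 for PDE5A. NPR3 alone was higher than NC in it, by 1.42. The median over the members was -1.50, against -3.00 for the smooth muscle markers. In H24 replicates 1 and 2 the median over the members was 0.25 and -0.08, against -0.53 and -0.12 for those markers.

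The genes most like the members were sought among 9740 named genes with a mean of at least 1 FPKM. The members' mean profile over the 9 libraries was closest to CCDC3 (Pearson r = 0.977), LTBP4 (0.975), CRISPLD2 (0.971), SGCD (0.969) and ZNF532 (0.963). The profile reached -1.31 in H24 replicate 3 and -0.16 to 0.47 elsewhere, and over the 8 libraries without it the r of these 5 genes was 0.785, 0.762, 0.727, 0.719 and 0.615. Pairs of members had other values without it: the Pearson r was 0.93 for PLN and KCNMB1 over 9 libraries and -0.06 over 8. It was 0.89 and 0.72 for KCNMB1 and NPR1, 0.71 and 0.45 for GUCY1A1 and GUCY1B1, and -0.67 and -0.90 for KCNMA1 and NPR3. These values are descriptions over libraries of 3 groups.

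Other genes of the pathway were read from lists drawn up by known role, with earlier results of these data known. Beside their counts stand the 11.5%, 7.39% and 10.3% of all genes called in H24/NC, H8/NC and H24/H8. Of 14 genes of nitric oxide synthesis, 13 of them tested in H8/NC, 1 was called higher in H24/NC, 1 lower in H8/NC and 1 higher in H24/H8. ARG1, the arginase that uses up the substrate of nitric oxide synthases, rose in H24/NC by 6.47 (SE 1.93, edgeR adjusted p = 0.22). Its values were 0.0227, 0 and 0.0458 FPKM in NC, on at most 9 counts, a level at which the fitted fold depends on the prior count, and 0.507, 0.0608 and 6.57 FPKM in H24. Leaving out H24 replicate 3, ARG1 was at 3.39 (SE 1.34, edgeR adjusted p = 0.4) and passed the thresholds. There the call rests on H24 replicate 1, at 91 counts, as replicate 2 held 8. The NC mean of 0.0228 FPKM is below the filter of 0.1, so ARG1 was tested only through its H24 values. Summed leukocyte markers were 1462 FPKM in H24 replicate 3, and the part of those cells was not tested. NOS2, the inducible synthase, fell by 1.40 in H8/NC (SE 0.39, edgeR adjusted p = 0.211), from 0.731, 0.351 and 0.677 FPKM to 0.229, 0.149 and 0.227 FPKM. In H24/H8 NOS2 rose by 1.56 (edgeR adjusted p = 0.351) and was at 0.77 without H24 replicate 3, where it was not called. DDAH1 was called there in its place, at 1.01 (SE 0.23, edgeR adjusted p = 0.341), and is named after its value was seen. With all libraries DDAH1 was at 0.98 in H24/H8 (SE 0.22, edgeR adjusted p = 0.336), just short of the fold.

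Among the other cyclases and peptide ligands 6 of 9 genes passed the filter in H24/NC, and 1 was called. GUCY2C, a receptor cyclase known from the gut, rose by 2.24 (edgeR adjusted p = 0.345), with 3.55 FPKM in H24 replicate 3 and 0.584 and 0.294 FPKM in the other H24 libraries. Without that library it was at 0.47 (edgeR adjusted p = 0.828). CORIN, the protease that activates atrial natriuretic peptide, fell by 1.76 in H24/H8 (SE 0.48, edgeR adjusted p = 0.336), from 0.521, 0.794 and 0.489 FPKM in H8 to 0.15, 0.27 and 0.187 FPKM. It was still called without H24 replicate 3, at -1.69.

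Of 9 other phosphodiesterases and cGMP exporters none was called in H24/NC (edgeR, 0 at an unadjusted p under 0.05) or in H8/NC (edgeR, also 0). In H24/H8 PDE1C, a calmodulin-dependent enzyme of dividing smooth muscle, rose by 2.02 (edgeR adjusted p = 0.341) at 0.321 to 0.492 FPKM in H24. In H8 it was at 0.0602, 0.149 and 0.0489 FPKM, on 18 to 49 counts. That H8 mean of 0.0859 FPKM is below the filter of 0.1, so PDE1C was tested only through its H24 values. PDE2A, which cGMP stimulates, fell by 1.38 (SE 0.49, edgeR adjusted p = 0.341). PDE2A was at 8.01, 8.25 and 12.1 FPKM in H8 and at 3.14, 6.92 and 1.96 in H24. Both calls held without H24 replicate 3. In H24/H8 without that library PDE3B was called lower too, at -1.27 (SE 0.40, edgeR adjusted p = 0.389), and is named after its value was seen.

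Partners and substrates of protein kinase G were mostly below 0: 10 of 14 in H24/NC (median -0.35, none called by edgeR, 0 at an unadjusted p under 0.05) and 12 of 14 in H24/H8 (median -0.56, 1 called lower). Once H24 replicate 3 was left out, 1 gene passed the unadjusted p in H24/NC, MYLK at -0.69 (SE 0.20, edgeR adjusted p = 0.193), named after its value was seen, and 3 did in H24/H8. TRPC6, a calcium entry channel that protein kinase G inhibits, rose by 1.95 in H8/NC (edgeR adjusted p = 0.325) and fell by 2.45 in H24/H8 (edgeR adjusted p = 0.341). H8 replicate 2, at 7.59 FPKM, stood far above the other H8 libraries, at 1.87 and 0.977 FPKM, and TRPC6 overlapped between groups in both comparisons. It was at -2.80 in H24/H8 without H24 replicate 3 and still called.

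Among 14 genes of calcium handling 2 were called higher in H24/NC, and neither without H24 replicate 3. They were the calcium pumps ATP2A3, which blood cells also express, at 2.05 (edgeR adjusted p = 0.312), and ATP2B1 at 2.04 (edgeR adjusted p = 0.286). ATP2A3 was at 46.2 FPKM in H24 replicate 3 and at 14.6 and 4.93 FPKM in the other H24 libraries, and ATP2B1 at 16.9, 6.01 and 1.87 FPKM. The summed leukocyte markers of that library were the highest of the 9, and their part was not tested. In H24/H8 no gene of this list was called with all libraries. Without H24 replicate 3 ITPR3 was called higher in H24/H8, at 1.01 (SE 0.31, edgeR adjusted p = 0.389), and is named after its value was seen.

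Other potassium channels gave 1 gene lower and 2 higher of 7 in H24/NC. KCNJ8, the pore of the vascular ATP-sensitive channel, fell by 1.19 (SE 0.42, edgeR adjusted p = 0.291). It was at 13, 9.08 and 9.25 FPKM in NC, at 7.96, 8.42 and 8.07 in H8 and at 6.28, 5.63 and 2 in H24, so that, as with KCNMA1, the 3 groups were apart in FPKM. With TMM scaling H8 and NC overlapped, again as with KCNMA1, and the log2 fold change in H8/NC was -0.21 (SE 0.18, edgeR adjusted p = 0.625). KCNJ8 without H24 replicate 3 was at -0.83 (SE 0.24, edgeR adjusted p = 0.186), under the fold of the call. KCNJ2, an inward rectifier, rose by 1.62 (edgeR adjusted p = 0.292) and KCNN3, a small-conductance channel, by 2.04 (edgeR adjusted p = 0.325), neither of them called without that library. In H24/H8 the voltage-gated channel gene KCNA5 fell by 1.55 (SE 0.58, edgeR adjusted p = 0.341), with 77.2 to 134 FPKM in H8 and 12 to 60.7 FPKM in H24, and by 1.13 without H24 replicate 3, still called. KCNJ2 rose by 1.72 and KCNN4 by 1.86 in H24/H8 (edgeR adjusted p = 0.341 and 0.355), and neither was called without that library.

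None of 14 genes of cAMP relaxation was called in H24/NC, H8/NC or H24/H8, where 11.5%, 7.39% and 10.3% of all genes were. With so few genes this is no contrast to the members. At an unadjusted edgeR p under 0.05 there was 1 in H24/NC, 2 in H8/NC and 0 in H24/H8. The medians were -0.23, 0.15 and -0.22. Without H24 replicate 3 they were -0.25 in H24/NC and 0.06 in H24/H8, beside -0.05 and -0.21 for the members. Of 11 receptors of contractile agonists, 1 was called in H24/NC, 2 in H8/NC and 0 in H24/H8 (edgeR, also 0 at an unadjusted p under 0.05). With H24 replicate 3 left out, 3 were called in H24/NC, HTR2B and also ADRA1A (1.88, SE 0.43) higher and AVPR1A (-1.35, SE 0.53) lower, and 3 passed the unadjusted p in H24/H8 with none called. ADRA1A and AVPR1A are named after their values were seen. EDNRA, the endothelin receptor of smooth muscle, fell by 1.39 in H8/NC (SE 0.24, edgeR adjusted p = 0.137). It was at 13.8, 10.2 and 16.4 FPKM in NC, at 5.15, 3.17 and 5.8 in H8 and at 9.49, 9.94 and 5.72 in H24, below NC in all 6 diet libraries. HTR2B, a serotonin receptor, rose by 1.73 in H24/NC (SE 0.35, edgeR adjusted p = 0.132), with 0.394 to 0.465 FPKM in NC and 1.13 to 1.82 FPKM in H24, and remained called without H24 replicate 3, at 1.55. In H8/NC HTR2B rose by 2.44 (edgeR adjusted p = 0.292), with 4.82 FPKM in H8 replicate 2 and 0.939 and 0.328 FPKM in the others.

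Some members share their place with other genes. PLN lies within CEP85L, PRKG1 spans CSTF2T and PDE3A overlaps the unnamed gene ENSSSCG00000036623, each on the opposite strand. Whether the counting used strand is not given in the sources used here, so reads of the overlapping pairs cannot be told apart. CEP85L was at 0.307 to 2.5 FPKM over the libraries, CSTF2T at 1.6 to 6.61 FPKM and the unnamed gene at 0.0474 to 1.14 FPKM on at most 14 counts. In H24 replicate 3 PLN was at its lowest, 24.9 FPKM, while CEP85L was at 1.35 FPKM, and PRKG1 was at its lowest, 2.59 FPKM, while CSTF2T was at its highest.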

How the data were processed

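Total RNA of the aorta was enriched for poly(A) and sequenced in pairs on an Illumina HiSeq instrument. The authors mapped reads to Sscrofa11.1 with HISAT and assembled them with StringTie 1.3.0 (HISAT2 2.0 in the submitters' processing notes, which also list Bowtie 0.12.2 and mm8, with no role given). The deposited table holds an FPKM value and a whole-number estimated count for each gene and library. How the authors derived these expected counts, the annotation release and strandedness are not given in the sources used here. No value column lacked a sample (0), and the table's columns of transcripts and annotation were used for identity only.

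Counts were read with data.table (version 1.17.8) and tested in R 4.3.3 by edgeR 4.0.16: the libraries of the groups compared, TMM, a filter that kept mean FPKM values from 0.1 upward, a dispersion trend and the two-sided quasi-likelihood test, checked on simulated counts. Calls need a log2 fold change beyond 1 and an unadjusted p under 0.05. Adjusted values are Benjamini-Hochberg over all genes tested. The quasi-likelihood test gives no SE. The SE printed is the size of the log2 fold change divided by the square root of the F statistic of that test. Ratios were compared with a two-sided exact permutation test (SciPy 1.17.1), adjusted over 15 comparisons. Alternatives used DESeq2 1.42.0, limma 3.58.1 on log2(FPKM + 0.1) and log2(FPKM + 1), other scalings and filters, a replicate block and each library left out. Scaling to smooth muscle markers without H24 replicate 3 was added after seeing the data. Figures used matplotlib 3.10.9.

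Members, pathway lists and marker lists were chosen with earlier results of these data known. The genes named are all members, up to 3 called genes a pathway list and comparison, NOS3, ATP2A2, the overlapping genes and the 5 closest in profile. Some cell markers, and genes marked as named after their values were seen, come besides these. Striated muscle and nerve markers were read as checks of dissection: they summed to at most 2.24 and 9.28 FPKM in any library. A floor of 3 counts corresponded to 0.0396 to 0.068 CPM (the share of a library's counts, scaled to a common total). It covers counting error only. No sequences are printed.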

Additional observations from a re-analysis of the deposited data

How the results depend on the processing

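No adjusted edgeR value of a member passed 0.05 under the settings as reported. The number of members called in H24/NC, 2, became 1 with scaling to smooth muscle markers, with limma on log2(FPKM + 1) and with a mean of at least 1 FPKM, a filter that removes NPR3 from the test. Leaving out each library gave 1 to 3. With scaling to smooth muscle markers and without H24 replicate 3 the number stayed 2, with PDE3A (1.07) called higher in place of KCNMA1. In H8/NC the single call became 0 by library size alone, scaled to smooth muscle markers, with limma at either pseudocount, with all 9 libraries in 1 fit and with a replicate block, and leaving out each library gave 0 to 1. The gene called was not always PDE3A: without NC replicate 1 it was NPR3. In H24/H8 the count of 0 became 1 with scaling to smooth muscle markers and with DESeq2, 2 with that scaling and without H24 replicate 3, and 0 to 1 when each library was left out.

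Scaling to smooth muscle markers moved the median of all genes to 1.71 in H24/NC, -0.25 in H8/NC and 2.03 in H24/H8, so a value below these is below the typical gene. It turned the direction in H24/NC of GUCY1A1 (0.98), GUCY1B1 (0.90), PRKG1 (0.66), PDE5A (0.99), PLN (0.50) and NPR1 (0.38), in H8/NC of PDE5A (-0.22), and in H24/H8 of GUCY1A1 (1.26), GUCY1B1 (0.63), PDE5A (1.21), PDE3A (0.75), PLN (0.25), KCNMA1 (0.35) and NPR1 (0.96). The same scaling without H24 replicate 3 turned GUCY1A1 (0.58), GUCY1B1 (0.17), PRKG1 (0.30), PDE5A (0.39) and PLN (0.42) in H24/NC, and GUCY1A1 (0.86), PDE5A (0.61), PDE3A (0.30), PLN (0.16), KCNMA1 (0.03), KCNMB1 (0.08) and NPR1 (0.46) in H24/H8. Of the latter, GUCY1A1, PDE5A and PLN in H24/NC and GUCY1A1 in H24/H8 had already turned without H24 replicate 3 alone. PDE5A also turned in H24/NC with limma (0.27 with 0.1 added and 0.14 with 1 added) and in H8/NC with median-ratio size factors, DESeq2 and all 9 libraries (-0.01 each) and by library size (-0.13), and GUCY1A1 in H24/H8 by library size (0.04). The cause of these turns was not tested.

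The replicate numbers did not pair the samples (same-numbered deviations correlated at -0.05 to 0.08). With the replicate block 2, 0 and 0 members were called in H24/NC, H8/NC and H24/H8, and PDE5A turned in H24/NC (0.25), GUCY1A1 in H8/NC (0.04) and PRKG1 in H24/H8 (-0.09).

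With 1 library left out, values crossed 0 for GUCY1A1 (-0.72 to 0.21 in H24/NC, -0.22 to 0.37 in H8/NC, -0.70 to 0.19 in H24/H8), PDE5A (-0.83 to 0.54 in H24/NC, -0.51 to 0.86 in H8/NC), PDE3A (-0.01 to 0.72 in H24/NC), PLN (-0.73 to 0.10 in H24/NC) and PRKG1 (-0.61 to 0.48 in H24/H8). Ratios crossed 0 for KCNMB1/KCNMA1 (-0.54 to 0.15, -0.13 to 0.31 and -0.64 to 0.06 in the 3 comparisons), PDE5A/PRKG1 (-0.06 to 1.71 in H24/NC) and PLN/ATP2A2 (-0.18 to 0.43 in H24/NC). KCNMA1 in H24/NC stayed between -1.50 and -0.84 and NPR3 between 1.12 and 1.80. Of the single-gene values, 297 of 347 under other settings and 153 of 180 with 1 library left out kept direction and side of the threshold.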
